A study of Mus musculus with 292 samples.

Results

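De novo fatty acid synthesis makes fatty acids from acetyl-CoA, and 10 genes of that route were followed through the day in 4 mouse tissues. The members were the rows of the count tables whose Ensembl identifiers map to Srebf1, Mlxipl, Me1, Acly, Acaca, Acacb, Fasn, Elovl6, Scd1 and Thrsp. All 10 were found among the 48795 genes of each table, and all 10 passed the filter on low counts in every tissue. The series holds 292 mRNA libraries from male wild type C57BL/6J mice aged 26 weeks, with 78 libraries of cerebral cortex, 60 of striatum, 77 of hypothalamus and 77 of liver. Mice were taken every 3 h up to 36 h, and the 13 time points fold onto 8 groups of zeitgeber time (ZT), with 6 to 12 libraries a group in cortex, hypothalamus and liver and 2 to 11 in striatum. No treatment or genotype contrast was made. The labels state neither the lighting nor the feeding schedule. The labels hold 79 mouse codes, 58 of which occur in all 4 tissues, so tissues are not independent of each other. The code CR88 occurs in 1 striatum library alone and is close to CRM88, which the other 3 tissues have at the same time point. It was kept as labelled, so that library is not in the fits with mouse as a block, and the number of mice may be 1 lower.

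In the cytosol, ATP citrate lyase splits citrate into acetyl-CoA, acetyl-CoA carboxylase makes malonyl-CoA from it, and fatty acid synthase builds palmitate with NADPH as the reductant. Elongases and desaturases then lengthen the chain and put in double bonds. In liver the route is known to rise with feeding, insulin and dietary sugar through the transcription factors SREBP1c, a product of Srebf1, and ChREBP, the product of Mlxipl. In brain, newly made fatty acids go largely into membranes, including myelin.

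Promoter windows are shown for the transcription factor genes Srebf1 and Mlxipl and for Fasn, which varied most closely with Srebf1 in liver. Each window is the 250 bases before a RefSeq start (table build GRCm38.p6), 5′ to 3′ on the gene's strand, with capitals marking every match to a searched motif.
Fasn, chr11:120824548-120824797, minus strand: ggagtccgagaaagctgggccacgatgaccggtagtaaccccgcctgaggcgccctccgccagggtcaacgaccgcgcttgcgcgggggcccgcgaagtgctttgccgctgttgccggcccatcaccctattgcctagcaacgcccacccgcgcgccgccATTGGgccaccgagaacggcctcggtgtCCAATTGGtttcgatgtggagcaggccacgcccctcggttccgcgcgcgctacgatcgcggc
Srebf1, start at the edge of the gene model, chr11:60222582-60222831, minus strand: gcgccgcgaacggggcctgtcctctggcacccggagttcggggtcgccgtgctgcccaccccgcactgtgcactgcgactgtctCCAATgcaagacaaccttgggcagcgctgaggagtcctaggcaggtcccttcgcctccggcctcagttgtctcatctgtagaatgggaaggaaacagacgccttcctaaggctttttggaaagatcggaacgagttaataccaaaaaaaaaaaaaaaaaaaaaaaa
Srebf1, first start inside the gene model, chr11:60220628-60220877, minus strand: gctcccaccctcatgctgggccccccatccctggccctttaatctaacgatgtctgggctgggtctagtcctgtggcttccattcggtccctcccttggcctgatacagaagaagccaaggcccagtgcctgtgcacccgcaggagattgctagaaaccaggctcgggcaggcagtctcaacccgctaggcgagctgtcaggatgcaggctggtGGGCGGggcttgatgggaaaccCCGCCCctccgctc
Srebf1, second start inside the gene model, chr11:60210472-60210721, minus strand: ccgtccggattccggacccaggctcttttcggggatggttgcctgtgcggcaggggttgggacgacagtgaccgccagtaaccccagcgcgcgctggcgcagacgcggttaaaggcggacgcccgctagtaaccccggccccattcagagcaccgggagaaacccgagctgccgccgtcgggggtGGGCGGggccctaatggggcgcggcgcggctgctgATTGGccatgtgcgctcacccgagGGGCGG
Mlxipl, downstream start, chr5:135106641-135106890, plus strand: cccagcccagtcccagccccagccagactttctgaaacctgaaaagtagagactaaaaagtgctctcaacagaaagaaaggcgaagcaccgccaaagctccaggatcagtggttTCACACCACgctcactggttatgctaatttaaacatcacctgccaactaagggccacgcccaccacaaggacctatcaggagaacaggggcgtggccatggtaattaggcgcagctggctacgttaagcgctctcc
Mlxipl, upstream start, chr5:135089640-135089889, plus strand: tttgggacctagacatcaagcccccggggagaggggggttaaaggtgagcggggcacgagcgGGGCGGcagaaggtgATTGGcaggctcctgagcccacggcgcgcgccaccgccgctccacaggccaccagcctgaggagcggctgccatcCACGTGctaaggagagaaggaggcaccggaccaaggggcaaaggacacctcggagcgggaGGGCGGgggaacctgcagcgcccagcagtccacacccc
4 motifs were searched on both strands. The E-box was spelled CACGTG. The box named for its high GC content was spelled GGGCGG. The box bound by nuclear factor Y was spelled CCAAT. The sterol regulatory element, the site of SREBP, was spelled TCACNCCAC. Of the 10 members, 9 had at least 1 window in the table, 13 windows in all, and Scd1 had none. The E-box letters were in 1 of the 13 windows, 98 bases before the upstream Mlxipl start, and in 6.02% of all 32851 windows of the same length. The sterol regulatory element letters were also in 1 of 13, 136 bases before the downstream Mlxipl start, against 1.05% of all windows. GC boxes were in 5 of 13 windows against 32.7%, and CCAAT in 7 of 13 against 33.9%. The Fasn window held 3 of these CCAAT matches, at 90, 62 and 59 bases before the start, and that of Thrsp, not printed, held 2, at 79 and 52. These matches describe letters and not bound sites.

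Depth, in M (mega) counts a library, was 28.3 to 50.0 M in cortex and hypothalamus, with medians of 33.5 and 34.1 M, 11.7 to 43.4 M in striatum and 11.7 to 41.9 M in liver. Liver markers matched the label: the 6 hepatocyte markers summed to 13835 to 125968 CPM (counts per 1 M counts, here of the library total) in liver. The lowest sum was that of ZT18 replicate 4. Without Ttr, which the choroid plexus also makes, the other 5 summed to 13301 CPM in that library and 80555 in the next lowest of liver. Their median was 0.687 CPM in cortex, 2.05 in striatum and 3.32 in hypothalamus, with a highest brain library of 107 CPM. Adipocyte markers were low in liver, where Adipoq, Plin1 and Lep had medians of 0 and the 5 markers summed to 0.171 to 18.0 CPM. Over the 4 tissues 7 libraries had been set apart from earlier work on these data. In liver this was ZT18 replicate 4, in which 10 genes took 83.8% of the counts, led by Gm42418, Lars2 and mt-Rnr2, against 17.3% to 25.4% in the other 76 liver libraries.

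In liver, 9 of the 10 members followed a 24 h cosine at an edgeR adjusted p under 0.05, and 72.8% of all 16159 genes tested in liver did so too. Values here are CPM scaled with TMM factors, which adjust library totals, and the log2 ratio is the fitted peak over trough. The members' median log2 ratio was 0.68 against 0.38 over all genes. Ratios of at least 2-fold were called for 4 members, Thrsp, Acacb, Elovl6 and Fasn, against 11.1% of all genes. ZT groups were also ranked by mean CPM. The lowest library of the highest group was above the highest library of the lowest group for 5 members, against 27.3% of genes. These were Mlxipl, Acly, Acacb, Scd1 and Thrsp. The highest mean was at ZT18 for Mlxipl, Acly and Acacb, and for Srebf1, Acaca and Fasn, with ZT18 replicate 4 included. The ranking without that library was not made. Of cell markers in liver, 1 of 6 hepatocyte ones was called, 5 of 5 for microglia and macrophages and 4 of 4 endothelial ones. Stellate cells had 2 of 3 called, cholangiocytes 2 of 2, adipocytes 1 of 2 and erythroid markers 1 of 3. Their part in the members' rhythms was not tested.

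**Figure D1:**
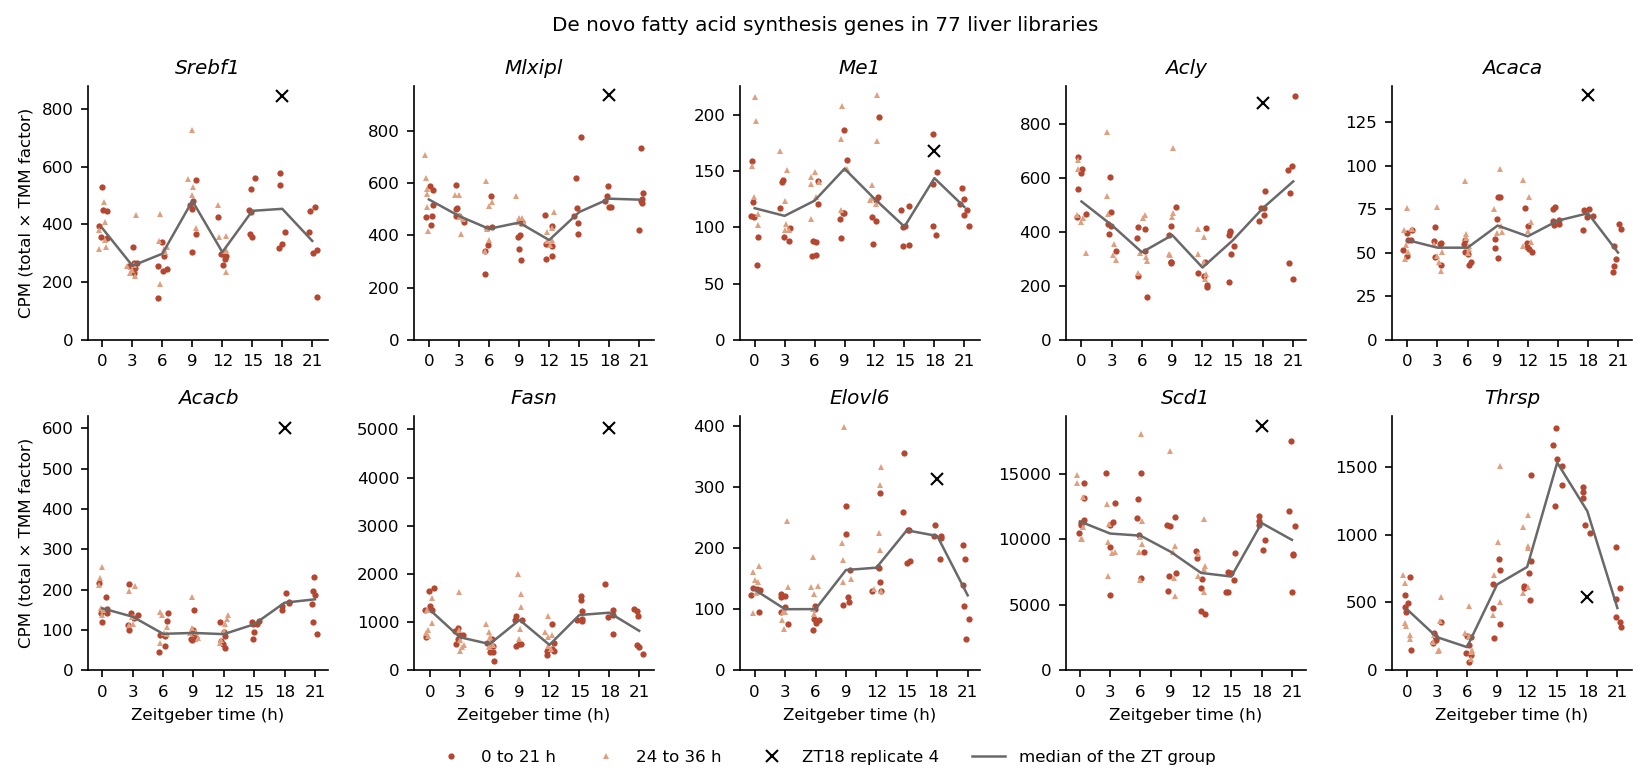
CPM (total × TMM factor) of the 10 members in each of 77 liver libraries by zeitgeber time in hours. Circles are time points 0 to 21 h, triangles 24 to 36 h, the cross is ZT18 replicate 4, and the line joins the medians of the ZT groups. Thrsp runs from a median of 170 CPM at ZT6 to 1533 at ZT15, whereas Me1 medians stay between 101 and 152 CPM.

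Of the transcription factor genes, Srebf1 (ENSMUSG00000020538, chromosome 11, 60199089 to 60222581, GRCm38 as are all positions here) ranged at ZT3 from 222 to 431 CPM with a median of 256 (n = 12). At ZT18 it ranged from 319 to 844 with a median of 454 (n = 6), so the groups overlapped. Medians had 3 high stretches, 386 at ZT0, 481 at ZT9 and 447 to 454 at ZT15 and ZT18, with 304 CPM at ZT12 in between. The fitted log2 ratio was 0.53 ± 0.14 (SE), peaking at ZT 15.98 ± 0.98 h (adjusted p = 0.0037, n = 77). With library totals in place of TMM factors Srebf1 was not called, at a log2 ratio of 0.36 (adjusted p = 0.095). Mlxipl (ENSMUSG00000005373, chromosome 5, 135089890 to 135138382) ranged at ZT12 from 308 to 489 CPM with a median of 382 (n = 12). Its ZT18 libraries ranged from 508 to 938 with a median of 541 (n = 6), all above ZT12. The log2 ratio was 0.52 ± 0.09 with a peak at ZT 20.8 ± 0.63 h (adjusted p = 1.3e-06).

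For the supply of NADPH and acetyl-CoA, Me1 and Acly differed. Me1 (chromosome 9, 86581371 to 86695953) encodes cytosolic malic enzyme, which yields NADPH. Its libraries ranged from 90.5 to 208 CPM at ZT9 with a median of 152 (n = 11), and from 83.6 to 119 at ZT15 with a median of 101 (n = 6). These groups overlapped, and the log2 ratio of 0.12 ± 0.12 did not pass the test (adjusted p = 0.63). The 95% interval of its fitted ratio reached 1.27-fold. Acly, ATP citrate lyase (chromosome 11, 100476353 to 100528000), ranged from 195 to 414 CPM at ZT12 with a median of 268 (n = 12) and from 442 to 878 at ZT18 with a median of 489 (n = 6). Every ZT18 library was above every ZT12 library. Its log2 ratio was 0.77 ± 0.14 with a peak at ZT 22.2 ± 0.73 h (adjusted p = 4.4e-06).

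The 2 acetyl-CoA carboxylase genes differed in size and time. Acaca (chromosome 11, 84129672 to 84401651) encodes the cytosolic enzyme that feeds synthesis. It ranged from 39.0 to 66.3 CPM at ZT21 with a median of 50.0 (n = 6). At ZT18 it ranged from 62.8 to 141 with a median of 72.6 (n = 6). Neighbouring ZT groups thus held its lowest and highest mean and overlapped. Its fitted log2 ratio was 0.41 ± 0.09 with a peak at ZT 14.7 ± 0.90 h (adjusted p = 3.5e-04). Acacb (chromosome 5, 114146535 to 114250761) encodes the carboxylase at the mitochondrial surface, whose malonyl-CoA restrains fatty acid import for oxidation. Its libraries ranged from 55.5 to 136 CPM at ZT12 with a median of 89.3 (n = 12) and from 149 to 602 at ZT18 with a median of 167 (n = 6), with no overlap. The log2 ratio was 1.12 ± 0.16 with a peak at ZT 21.3 ± 0.53 h (adjusted p = 6.0e-09). No test of the difference between genes was run.

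Fasn, fatty acid synthase (chromosome 11, 120805846 to 120824547), ranged at ZT6 from 191 to 948 CPM with a median of 541 (n = 12). At ZT18 it ranged from 757 to 5029 with a median of 1192 (n = 6), and the groups overlapped. Like Srebf1, its medians were high at ZT0 (1251), ZT9 (1042) and ZT15 to ZT18 (1144 and 1192) and low at ZT12 (523). The log2 ratio was 1.03 ± 0.24 with a peak at ZT 18.7 ± 0.79 h (adjusted p = 2.9e-04). Elovl6 (chromosome 3, 129532355 to 129638495) encodes the elongase that takes palmitate to stearate. It ranged at ZT6 from 65.6 to 185 CPM with a median of 99.9 (n = 12) and at ZT15 from 175 to 355 with a median of 229 (n = 6), a narrow overlap. Its log2 ratio was 1.09 ± 0.16 with a peak at ZT 14.9 ± 0.56 h (adjusted p = 1.9e-08). Scd1 (chromosome 19, 44394455 to 44407879) encodes the desaturase that makes oleate and palmitoleate. Its 6 ZT15 libraries ranged from 5934 to 8917 CPM with a median of 7152, and the 12 ZT0 libraries from 9984 to 14952 with a median of 11362, so the groups did not overlap. The log2 ratio was 0.59 ± 0.12 with a peak at ZT 0.48 ± 0.89 h (adjusted p = 1.4e-04).

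Thrsp (chromosome 7, 97412938 to 97417730), the Spot 14 gene that responds to thyroid hormone and is tied to lipogenesis, had the largest ratio of the members. At ZT6 it ranged from 58.3 to 477 CPM with a median of 170 (n = 12), and at ZT15 from 1216 to 1789 with a median of 1533 (n = 6). The lowest ZT15 library was above every ZT6 library. The fitted ratio was 5.42-fold, log2 2.44 ± 0.22, with a peak at ZT 15.8 ± 0.34 h (adjusted p = 1.7e-15).

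Peaks of the 9 called members thus ran from ZT 14.7 to ZT 0.48. Acaca, Elovl6, Thrsp and Srebf1 had fitted peaks between ZT 14.7 and ZT 15.98, Fasn at ZT 18.7, and Mlxipl, Acacb and Acly between ZT 20.8 and ZT 22.2. Scd1 came last. The plot of ratios and peak times shows the SE of each, and neighbours in that order lie within their SEs in several cases.

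**Figure D2:**
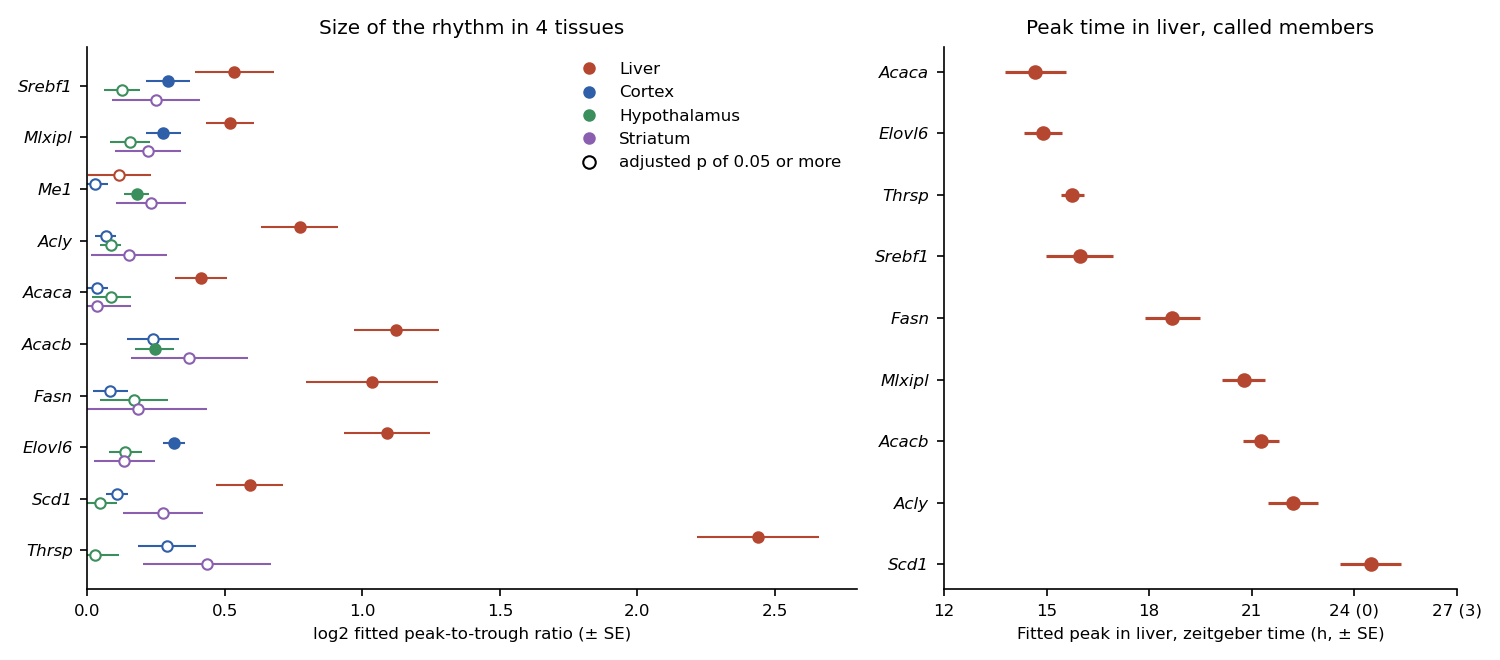
Left, log2 fitted peak-to-trough ratio ± SE of each member in liver, cortex, hypothalamus and striatum; filled points have an adjusted p under 0.05. Right, fitted peak time in liver ± SE, in hours of zeitgeber time, for the 9 called members. Liver ratios reach 2.44 for Thrsp, and brain ratios lie between 0.03 and 0.43.

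The ZT18 liver library that stands apart was above the 5 other ZT18 libraries for 8 members, all but Me1 and Thrsp. Replicate 4 had 5029 CPM of Fasn against 757 to 1779 in the 5 other ZT18 libraries, and 602 CPM of Acacb against 149 to 192. On library totals alone the same library had 1089 CPM of Fasn against 752 to 1786, and 116 CPM of Thrsp against 1058 to 1361. Its TMM factor was 0.217. Without it the same number of members was called, 9, but the fitted ratios of Fasn and Acacb were below 2-fold, which leaves 2 members of the 4 above it, Thrsp and Elovl6. The log2 ratio of Fasn was then 0.72 ± 0.22 (adjusted p = 0.010) and that of Acacb 0.96 ± 0.13. Those of Srebf1 (0.45), Mlxipl (0.46), Acly (0.73), Acaca (0.36), Scd1 (0.61), Elovl6 (1.05) and Thrsp (2.49) stayed closer to the values above.

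A 12 h component asks whether the profile departs from 1 cosine a day. No member was called for it by edgeR or by DESeq2 in any tissue, against 15.4% of genes in liver, 0.332% in cortex, 0.0277% in striatum and 0.0686% in hypothalamus. At an unadjusted p under 0.05 the edgeR counts were 2, 1, 2 and 0 members, beside 4340 of 16159 genes, 2403 of 19564, 5381 of 21637 and 1124 of 20407. The pair in liver was Srebf1 (log2 0.41 ± 0.14, adjusted p = 0.099) and Scd1 (0.34 ± 0.13, adjusted p = 0.13).

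The 5 ZT groups from ZT0 to ZT12 were sampled on both days, and the days were compared with ZT held fixed. In liver no gene was called by edgeR or DESeq2 (0% of 15604), and 5 members had an unadjusted p under 0.05, as did 1101 of the 15604 genes. All 10 estimates were above 0 there, and the median estimate over all genes was -0.003. Members varied together within time points, so these signs are not independent of each other. The smallest p was that of Me1, with second-day values higher by log2 0.33 ± 0.09 (adjusted p = 0.43). At ZT6 its first-day libraries ranged from 74.1 to 141 CPM with a median of 87.7 (n = 6) and its second-day libraries from 107 to 149 with a median of 140 (n = 6). In hypothalamus no gene and no member was called, and no member had an unadjusted p under 0.05 (1179 of 19696 genes). In cortex 1 member was called, Scd1 (log2 -0.09 ± 0.03, adjusted p = 0.040; 6.82% of genes), and 1 in striatum, Acacb (0.51 ± 0.14, adjusted p = 0.046; 2.92% of genes). Both calls were lost with library totals, with no filter on low counts and with the replicate block, and Acacb also without the striatum libraries set apart (adjusted p = 0.072).

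In cortex 3 of the 10 members were called rhythmic, against 43.7% of all 19564 genes tested there. The members' median log2 ratio was 0.17 against 0.19 over all genes. Elovl6 had the smallest p. Its 12 libraries at ZT0 ranged from 68.1 to 81.5 CPM with a median of 71.9, and its 12 at ZT6 from 52.1 to 71.0 with a median of 60.9. These overlapped in a narrow band, and the log2 ratio was 0.32 ± 0.04 with a peak at ZT 20.02 ± 0.46 h (adjusted p = 3.2e-09). Srebf1 (log2 0.29 ± 0.08, peak ZT 2.91, adjusted p = 0.0073) and Mlxipl (0.28 ± 0.06, peak ZT 0.93, adjusted p = 0.0011) were the other calls. Mlxipl lay between 2.11 and 4.74 CPM in all 78 cortex libraries. The ZT groups of highest and lowest mean overlapped for every member in cortex, whereas 9.42% of genes had no overlap between them. Other pairs of groups were not counted. Of cell markers in cortex, 4 of 4 endothelial ones were called, at a median log2 ratio of 0.53. For oligodendrocytes 3 of 6 were called, at 0.30, a share near the 43.7% of all genes. Microglia and macrophages had 2 of 5 called, astrocytes 1 of 5 and neurons 0 of 5. Of the lists for other tissues, hepatocytes had 3 of 3 tested markers called, at 1.57, pituitary 1 of 2 and cerebellum 1 of 1. Liver stellate and erythroid markers had 0 of 3 called each. The part of these lists was not tested. The sums over libraries ran from 106 to 184 CPM for the endothelial markers and from 2920 to 14480 for those of oligodendrocytes. The part of endothelial cells and oligodendrocytes in the members' rhythms was not tested.

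Without the 2 cortex libraries that stand apart, Acacb (log2 0.33, adjusted p = 0.00302) and Thrsp (0.29, adjusted p = 0.016) were called as well. In those libraries, ZT0 replicate 1 and ZT9 replicate 9, Thrsp was at 5.17 and 7.33 CPM against at least 10.8 and 11.7 in the rest of their groups. Acly was at 289 and 273 CPM against at most 217 and 216. The ZT9 library also had the highest sum of the 6 oligodendrocyte markers in cortex, 14480 CPM against a median of 4950. The ZT0 library had the lowest sum of the 5 neuron markers, 3394 CPM against a median of 7077, and the highest Gad1 (752 CPM against a median of 420) and Ttr (4368 CPM against 24.3). The part of other cells or tissue in these values was not tested.

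In hypothalamus 2 members were called, against 24.3% of 20407 genes. Me1 ranged from 39.9 to 53.8 CPM at ZT9 with a median of 47.6 (n = 11) and from 39.9 to 44.5 at ZT21 with a median of 41.1 (n = 6), which overlap. ZT9 replicate 9 alone made that overlap, and the 10 other ZT9 libraries were at 45.4 CPM or more. The log2 ratio of Me1 was 0.18 ± 0.04 with a peak at ZT 8.39 (adjusted p = 0.0046). Acacb ranged from 8.62 to 15.5 CPM at ZT6 (n = 12) and from 8.52 to 12.0 at ZT18 (n = 6), at log2 0.25 ± 0.07 with its peak at ZT 6.89 (adjusted p = 0.020). The libraries set apart here, ZT0 replicate 9 and ZT9 replicate 9, both had 15.4 CPM of Acacb, above the rest of their groups (at most 12.9 and 12.1), and the lowest Me1 (38.5 and 39.9). The ZT0 library held 36304 CPM of pituitary markers against a median of 0.474. Without both, Me1 (log2 0.18, adjusted p = 0.0032) and Acacb (0.24, adjusted p = 0.014) were still called. Of endothelial markers 4 of 4 were called in hypothalamus, at a median log2 ratio of 0.44, and their part was not tested. Neurons had 1 of 5 markers called, oligodendrocytes 0 of 6, astrocytes 0 of 5 and microglia and macrophages 0 of 5. Of the lists for other tissues, pituitary had 2 of 2 called, at a median log2 ratio of 12.0, and hepatocytes 1 of 3. Cerebellum, liver stellate, cholangiocyte and erythroid markers had 0 called, and the part of these lists was not tested. Neither member was called with the first day alone, where adjusted p was 0.097 and 0.20. The members' median log2 ratio was 0.13 against 0.16 over all genes. With all libraries kept, the groups of highest and lowest mean overlapped for every member, whereas 2.93% of genes had no overlap between them. For Me1 that overlap was made by ZT9 replicate 9 alone. In striatum no member was called by edgeR or by DESeq2, against 5.7% of 21637 genes in edgeR. No member had an unadjusted p under 0.05 there either, against 3730 of the 21637 genes. The groups of highest and lowest mean did not overlap for 1 member, Me1, against 24.8% of genes. For Me1 these were 2 libraries at ZT15 (38.7 and 40.0 CPM) and 4 at ZT18 (18.5 to 33.9 CPM). The median log2 ratio was 0.23 against 0.24 over all genes, and 95% intervals of the fitted ratio reached 1.85-fold for Thrsp and 1.60-fold for Fasn.

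Whether the rhythm itself differed between tissues was tested with an interaction term. Between liver and cortex it differed for 9 members, all but Me1, against 50.2% of genes, although Mlxipl (adjusted p = 0.086) and Acaca (adjusted p = 0.105) were lost with library totals. Between liver and hypothalamus it differed for 8, all but Me1 and Mlxipl, against 48.1%, and Mlxipl joined them with mouse as a block (adjusted p = 0.029). Between liver and striatum it differed for 7, against 30.8%. With mouse as a block it differed for 5, beside 5595 of 22683 genes, since Mlxipl (adjusted p = 0.16) and Fasn (adjusted p = 0.11) were lost. Those 2 were also lost with library totals, with no filter on low counts and without the libraries set apart. Thrsp had the smallest adjusted p in all 3 comparisons, 4.9e-16, 5.8e-15 and 1.2e-06. Between cortex and hypothalamus no member was called by edgeR (5.47% of genes). At an unadjusted p under 0.05 there were 2 members, beside 4079 of 21071 genes. Elovl6 alone was called with mouse as a block (adjusted p = 0.040).

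All 10 members had a higher level in liver than in each brain region, while 42.8% of genes were called higher in liver than in cortex, 41.2% than in striatum and 42.4% than in hypothalamus. Mlxipl stood highest at log2 8.04 ± 0.04 (SE) over cortex, 7.82 over striatum and 8.22 over hypothalamus. Over cortex it was followed by Scd1 (6.29 ± 0.05), Thrsp (6.10 ± 0.11), Acacb (5.53 ± 0.07) and Srebf1 (4.03 ± 0.06). Acaca (1.54 ± 0.04), Acly (1.96 ± 0.05) and Elovl6 (2.17 ± 0.06) differed least. The scale matters here, since the median difference over all genes between liver and cortex was -0.29 with TMM factors, -0.46 with DESeq2 size factors and -1.22 with library totals. The members' direction against each brain region was the same under all 3. In bulk tissue fewer cells of a type and less RNA per cell cannot be told apart.

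Levels can be compared between genes only per length, and the authors' FPKM (fragments scaled by a length for each gene and by depth) give that. The lengths behind them match all annotated exons of a gene, 17074 bases for Acaca and 9632 for Acacb, and not 1 transcript. The order of genes below, and Acacb against Acaca, depends on those lengths. In liver Scd1 came first, with a lowest, median and highest library of 836, 2056 and 3875 FPKM, and Thrsp followed with 28.1, 236 and 801. Mlxipl had a median of 86.9 FPKM, Acly 78.3, Fasn 74.4 and Srebf1 61.9, and the ranges of these 4 overlapped widely. Me1 had 31.6, Elovl6 21.7, Acacb 12.6 and Acaca 3.52. In the 3 brain regions the order began with Scd1, Acly and Fasn, at medians of 50.2, 38.6 and 23.6 FPKM in cortex, 83.9, 43.9 and 23.1 in hypothalamus and 62.0, 49.6 and 14.1 in striatum. Mlxipl and Acacb came last there, with medians between 0.531 and 1.10 FPKM. The ratio of carboxylases turned over: the liver median of Acacb was above that of Acaca, and in each brain region it was below.

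**Figure D3:**
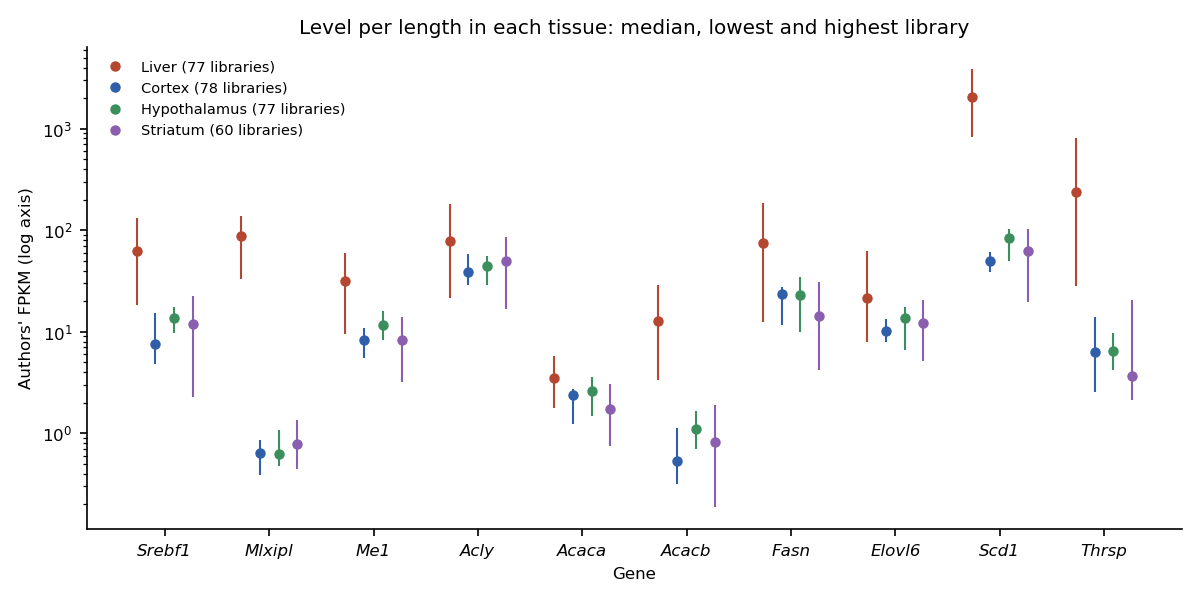
Authors' FPKM on a log axis for each member in liver, cortex, hypothalamus and striatum. Points are medians over libraries and lines run from the lowest to the highest library. Liver Mlxipl (32.7 to 138 FPKM) lies above every brain library, the highest of which is at 1.34 FPKM.

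Between cortex and hypothalamus 8 members differed in level (89% of genes, 42.9% higher and 46.1% lower in cortex). Acacb (log2 -0.85 ± 0.04), Srebf1 (-0.69 ± 0.04), Scd1 (-0.49 ± 0.03), Me1 (-0.33 ± 0.02) and Elovl6 (-0.22 ± 0.03) were lower in cortex. Thrsp (0.20 ± 0.05), Mlxipl (0.18 ± 0.03) and Fasn (0.16 ± 0.05) were higher in cortex with TMM factors. With library totals, which moved the median of all genes from -0.03 to -0.21, Mlxipl (-0.00573) and Fasn (-0.034) turned sign and Thrsp (0.019) was not called. The oligodendrocyte markers summed to 2920 to 14480 CPM in cortex and 4133 to 14541 in hypothalamus, with medians of 4950 and 6380, and their part in these differences was not tested.

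Mice of the same time point still differed, and the liver values after subtraction of each time point's mean show which members varied together. Of 17 relations of Srebf1 and Mlxipl with the other members, 10 had an adjusted p under 0.05 (Pearson r, two-sided permutation test within time points, 100000 resamples, n = 77). With Spearman rho in the same test 8 passed. Srebf1 with Me1 (adjusted permutation p = 0.056) and Mlxipl with Fasn (adjusted permutation p = 0.11) did not pass by rho. Srebf1 and Fasn had the highest, r = 0.81 and Spearman rho = 0.77 (permutation p = 1e-05, the smallest these resamples can give, adjusted 8.5e-05). Without the 2 libraries farthest from the median of Srebf1 it was 0.78. Srebf1 was next related to Acly (r = 0.63, rho = 0.52), Elovl6 (0.57, 0.54), Acacb (0.53, 0.42), Acaca (0.47, 0.40), Scd1 (0.47, 0.39) and Thrsp (0.37, 0.44). Each of these kept an adjusted permutation p under 0.05 without the 2 farthest libraries. Its relation to Me1 (r = 0.25, rho = 0.27, adjusted permutation p = 0.048) did not (adjusted p = 0.053), and the relation to Mlxipl (r = 0.17, rho = 0.065) did not pass the permutation test (adjusted p = 0.24).

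Mlxipl passed with Acacb (r = 0.47, rho = 0.38, adjusted permutation p of r = 0.0015) and, by r alone, with Fasn (r = 0.33, rho = 0.22, adjusted permutation p of r = 0.020). The latter was at 0.21 without ZT18 replicate 4 (adjusted permutation p = 0.14) and so rested on that library. Without it Mlxipl passed with Thrsp instead (r = 0.35, adjusted permutation p = 0.0136), a relation at r = 0.24 with it (adjusted permutation p = 0.0698). Scaling and depth are shared by all genes of a library, and with library totals 15 of the 17 relations passed. Without ZT18 replicate 4, 9 passed, and Srebf1 and Fasn were at r = 0.79. Centring on the library code given in the labels as well left them at 0.80, and the meaning of that code is not stated.

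**Figure D4:**
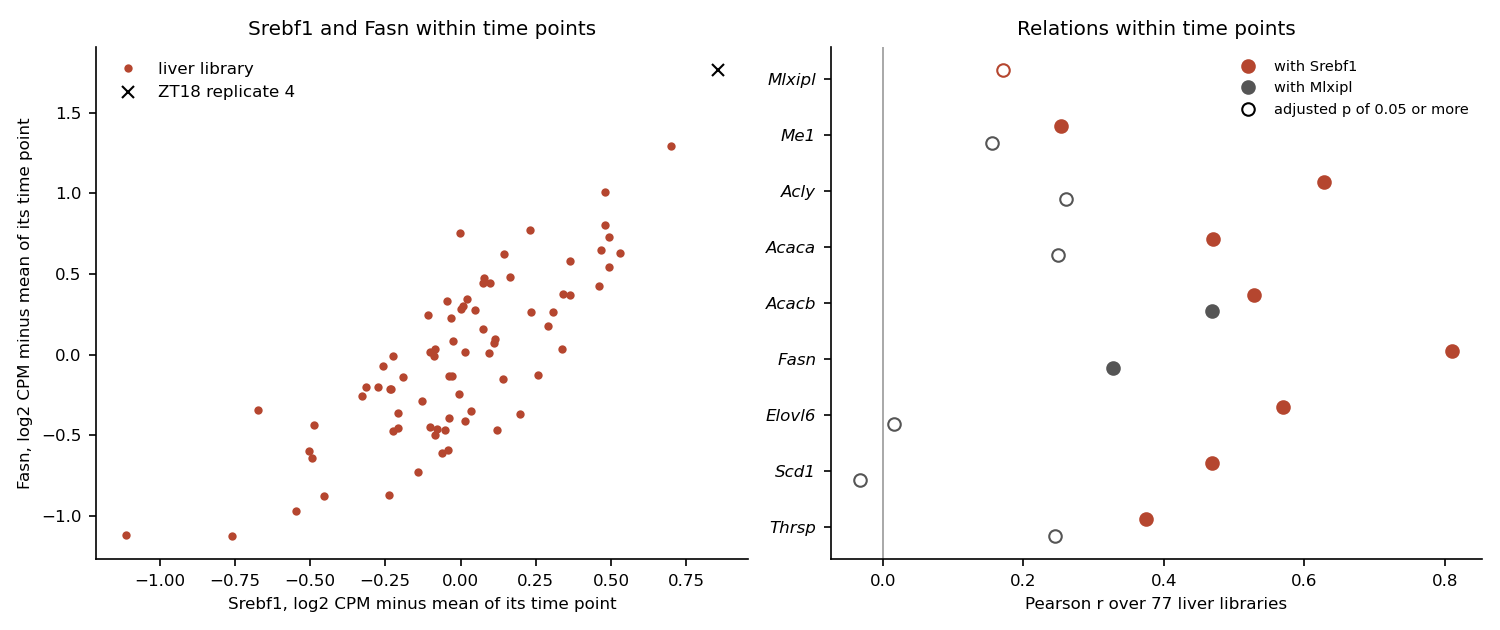
Left, Fasn against Srebf1 in 77 liver libraries, both as log2 CPM minus the mean of the time point; the cross is ZT18 replicate 4. Right, Pearson r of Srebf1 and of Mlxipl with each other member, with open points for an adjusted p of 0.05 or more. Srebf1 and Fasn rise together at r = 0.81, and Mlxipl and Scd1 lie at r = -0.03.

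Over all 77 liver libraries, with time of day left in, the genes most like each member were named as a description. The measure was Pearson r of log2 CPM against 11415 genes, which share library and depth. ZT18 replicate 4 was among the libraries, and these r values were not computed without it. Thrsp was most like the clock gene Per2 (r = 0.85) and Fam47e (0.85). Srebf1 and Fasn shared Mid1ip1, which encodes a partner of acetyl-CoA carboxylase, among their closest 2 (r = 0.82 and 0.77), and Mtf1 (0.75) and Slc25a44 (0.77) were the others. Elovl6 and Acaca were both closest to Pklr, liver pyruvate kinase (0.84 and 0.75), and next to Tkfc (0.80 and 0.71). Acly and Scd1 shared Pnpla3, a lipid droplet protein gene (0.79 and 0.70), beside Pgd (0.83) and Elovl5 (0.71). Mlxipl was closest to Med12 (0.83) and Sugp2 (0.80), and Acacb to Clcn6 (0.77). Me1 had weaker partners, Gm35986 and Xpot (both 0.58). Among members the closest pairs were Acaca and Elovl6 (0.87), Acly and Acacb (0.85) and Srebf1 and Fasn (0.82), and Scd1 and Thrsp were at -0.20.

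The genes around the route were taken from 4 lists. The share called over all genes, 72.8% in liver, is the background of each count. For the supply of substrate and NADPH 8 of 10 genes were called in liver, with a median log2 ratio of 0.38, equal to that over all genes at this rounding. Pklr was at 490 ± 207 CPM (SD, n = 11) at ZT9 and 221 ± 46.7 (n = 12) at ZT3, a fitted ratio of 2.31-fold with a peak at ZT 13.9. G6pdx, the first enzyme of the pentose phosphate route, had a fitted ratio of 2.11-fold and its peak at ZT 23.1. Of the genes that control SREBP1, ChREBP and the carboxylases 12 of 13 were called. Insig2, which holds SREBP in the endoplasmic reticulum, was at 346 ± 45.2 CPM (n = 12) at ZT3 and 58.5 ± 10.2 (n = 12) at ZT12, 5.38-fold with a peak at ZT 0.37. Scap, the SREBP escort (1.55-fold, peak ZT 4.57), and Prkaa2, an AMP kinase subunit (1.51-fold, peak ZT 13.9), had the next largest ratios.

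All 11 genes for use of the fatty acids were called in liver, with a median log2 ratio of 0.66. Lpin1, a phosphatidate phosphatase, was at 511 ± 186 CPM (n = 12) at ZT12 and 29.7 ± 5.83 (n = 12) at ZT0, an 11-fold fitted ratio. Pnpla3 (4.95-fold, peak ZT 21.1) and Elovl5 (2.66-fold, peak ZT 1.65) came next. The separate mitochondrial route of fatty acid synthesis had 6 of 8 called and a median of 0.24, below that of all genes. Cbr4 (1.41-fold), Lipt2 (1.35-fold) and Ndufab1 (1.28-fold) led it. H2-Ke6 of that list shares 86.4% of its exonic bases with Gm20427, so its counts are uncertain. Pklr shares 21.97% with Hcn3 and Mid1ip1 25.5% with Gm14493, and the strand setting of the counting is not given.

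The same lists in cortex had 5 of 9, 8 of 13, 5 of 11 and 7 of 8 called, where 43.7% of all genes were. In hypothalamus they had 0 of 10, 5 of 13, 4 of 11 and 6 of 8 called, against 24.3%, and in striatum 0, 0, 0 and 1, against 5.7%. For supply in cortex, Slc25a1, the mitochondrial citrate carrier, had a fitted ratio of 1.2-fold and Mpc1, a pyruvate carrier subunit, 1.17-fold. Insig1 (1.43-fold, peak ZT 8.11), Mid1ip1 (1.22-fold) and Insig2 (1.18-fold, peak ZT 20.1) led the control list. Dgat2 (1.29-fold), Dgat1 (1.18-fold) and Scd2 (1.12-fold) led use, and Cbr4 (1.35-fold), Mcat (1.24-fold) and Lipt2 (1.22-fold) the mitochondrial route.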

How the data were processed

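The authors deposited gene counts and FPKM for each library. Per the submitters' processing notes, STAR 2.7.3a, HTSeq 0.10.0 and the GRCm38 (mm10) build were used; no release of the annotation and no counting strand is named there. The deposited counts were tested with edgeR 4.0.16 in R 4.3.3: TMM factors, filterByExpr by ZT group, a quasi-likelihood test of a 24 h cosine and sine, and Benjamini-Hochberg adjustment over all genes tested, with calls at an adjusted p under 0.05. Tissue pairs were fitted together for interactions and levels. The authors' FPKM served only for levels between genes. The tests were tried on simulated counts with liver gene means, the same dispersion for every gene and changes larger than any member's brain ratio. That trial does not cover changes as small as those in brain. Alternatives were DESeq2 1.42.0, other scalings and filters, blocks, and libraries left out. Mouse codes tie tissues to the same animal, so mouse as a block is a true pairing. Totals were 11.7 to 50.0 M (mega) counts. The members, gene lists, marker lists and libraries set apart were chosen with earlier results of these data known. Genes named from the lists were the 3 with the largest ratio among those called, in liver and cortex. The closest genes were the 2 with the highest r. Some genes that these rules name are not reported here. Promoter windows and positions come from the RefSeq table (GRCm38.p6) and GENCODE vM21.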

Additional observations from a re-analysis of the deposited data

Results flagged for a closer look

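A library far from the rest was looked for in 140 groups, each 1 member in 1 ZT group of 4 to 10 libraries. Chance alone marks about 1 group in 20, and 19 values were flagged. Flags of the same library are not independent of each other. The values below are CPM, each with the range of the other libraries of the group. Liver ZT18 replicate 4 had Mlxipl at 938 CPM (others 508 to 588), Acly at 878 CPM (others 442 to 552), Acaca at 141 CPM (others 62.8 to 75.2), Acacb at 602 CPM (others 149 to 192), Fasn at 5029 CPM (others 757 to 1779) and Scd1 at 18679 CPM (others 9143 to 11752). That library was described above with its depth, and on library totals it was below the other ZT18 libraries for each of these but Fasn.

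Cortex ZT18 replicate 1 had Scd1 at 265 CPM (others 227 to 235). Cortex ZT18 replicate 3 had Me1 at 39.9 CPM (others 30.1 to 32.8). Cortex ZT18 replicate 5 had Thrsp at 17.3 CPM (others 11.2 to 13.5). Striatum ZT21 replicate 4 had Acaca at 23.5 CPM (others 33.4 to 37.5) and Elovl6 at 55.3 CPM (others 86.2 to 102). Striatum ZT0 replicate 4 had Acacb at 16.4 CPM (others 5.19 to 10.6). Striatum ZT9 replicate 8 had Acacb at 15.4 CPM (others 5.76 to 10.3) and Thrsp at 19.2 CPM (others 4.65 to 11.6). Striatum ZT21 replicate 3 had Thrsp at 43.8 CPM (others 5.81 to 16.9). Hypothalamus ZT21 replicate 1 had Acacb at 12.9 CPM (others 10.2 to 10.8). Hypothalamus ZT18 replicate 4 had Scd1 at 297 CPM (others 369 to 408). Hypothalamus ZT21 replicate 4 had Scd1 at 273 CPM (others 380 to 441) and Me1 at 44.5 CPM (others 39.9 to 41.2). Striatum ZT21 replicate 3 also had 2820 CPM of cerebellum markers against a striatum median of 0.80 CPM.

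Rhythms that differed between 2 tissues by the interaction test in edgeR are given by adjusted p. Between liver and cortex the adjusted p was Srebf1 0.00025, Mlxipl 0.0114, Acly 0.000109, Acaca 0.0112, Acacb 5.22e-09, Fasn 0.00236, Scd1 0.000885, Thrsp 4.94e-16 and Elovl6 3.90e-08. Between liver and striatum the adjusted p was Mlxipl 0.0403, Acly 0.00118, Acacb 7.73e-05, Fasn 0.0457, Scd1 0.00211, Thrsp 1.22e-06 and Elovl6 5.11e-05. Between liver and hypothalamus the adjusted p was Srebf1 0.00707, Acly 7.41e-05, Acaca 0.00333, Acacb 5.87e-10, Fasn 0.00207, Scd1 0.000596, Thrsp 5.82e-15 and Elovl6 1.72e-08.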

How the results depend on the processing

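Of the members' ratios under the alternatives, 444 of 460 kept their side of the threshold, as did 235 of 240 levels, 226 of 240 differences in rhythm and 68 of 85 relations. The count of rhythmic members in cortex, 3, was 5 with library totals, without the libraries set apart, with a CPM of at least 1 in 6 libraries or with a covariate for the second cycle, 6 with the first cycle alone and 4 with library code as a covariate. Over all genes, calls in cortex were 8545 of 19564 in the main fit and 8489 of 19564 with library totals. They were 9344 of 19509 without the libraries set apart, 7637 of 16353 with the CPM filter and 8799 of 19564 with the second-cycle covariate. With the first cycle alone they were 7919 of 19199, and with library code 7752 of 19564. In hypothalamus the count of 2 was 1 with ZT as a factor, 0 with the first cycle alone and 3 with the replicate block. Calls over all genes there were 4967 of 20407 in the main fit and 3644 of 20407 with ZT as a factor. They were 2155 of 20239 with the first cycle alone and 7136 of 20407 with the replicate block. Members that differed between cycles in cortex numbered 1, against 0 with library totals, no filter or the replicate block and 2 without the libraries set apart. Over all genes the main fit called 1290 of 18909, library totals 1100 of 18909 and no filter 890 of 35621. The replicate block called 259 of 18909, and the fit without the libraries set apart 3076 of 18927. In striatum such members numbered 1, against 0 with library totals, no filter, the replicate block or without the libraries set apart and 2 with DESeq2. Over all genes the main fit called 579 of 19813 there, library totals 1 and DESeq2 1679. The other 3 of these settings called 0 genes. The 12 h count in striatum was 3 with the replicate block, where 5207 of 21637 genes were called. Cortex against hypothalamus had 1 difference in rhythm with mouse as a block, against 0. Over all genes that block called 1333 of 21068 and the main fit 1153 of 21071. Leaving out each striatum library of ZT15 or ZT18 gave 0 rhythmic members throughout.

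With library totals the levels of cortex over hypothalamus turned sign for Mlxipl (-0.00573), Acaca (-0.169) and Fasn (-0.034). The r of Mlxipl and Scd1 turned to 0.204 with library totals and 0.060 with centring on library code, and that of Mlxipl and Elovl6 to -0.035 without ZT18 replicate 4. The causes were not tested. Over all genes, calls between cycles were 1290 in cortex, 259 with the replicate block and 3076 without the libraries set apart. In the 12 h test of striatum, calls over all genes went from 6 to 5207 with the replicate block. Same-numbered libraries had a median correlation of 0.11 (cortex), 0.064 (striatum), 0.13 (hypothalamus) and 0.015 (liver), against -0.0037, -0.0091, -0.0064 and -0.0042 for other numbers. Of same-numbered pairs 51.3%, 48.1%, 54.5% and 29.0% were above 0.1, against 34.75%, 42.5%, 38.5% and 25.1% of other pairs. What makes same-numbered libraries more alike was not tested. The numbers were not treated as pairs in the main fits, and entered only as the replicate block of the alternatives. In striatum the smallest ZT group had 2 libraries, and the 95% intervals of the members' ratios there reached 1.21-fold to 1.85-fold.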
